A study of Homo sapiens with 4 samples.

Results

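The miRNAs described here are the arms of miR-146a, miR-146b and miR-155, a set linked to NF-kB signalling: hsa-miR-146a-5p, hsa-miR-146a-3p, hsa-miR-146b-5p, hsa-miR-146b-3p and hsa-miR-155-5p. They are 5 of the 2080 mature miRNA names listed in any of the 4 files, and all 5 were listed in each file. They were chosen by name from a list drawn up with their sphere and parental levels known, so those levels and ratios are given as a description and carry no p-value. The series profiled small RNAs of HT29 and HCT15, both long-established lines from human colorectal tumours. parental HT29 cells were grown in DMEM and parental HCT15 cells in RPMI, each with serum and antibiotics. Spheres of both lines were grown in DMEM-F12 with N2 Plus supplement, bFGF, EGF and antibiotics but no serum named, and the labels call them sphere-derived cancer stem cells. Each line and culture gave 1 library, so every difference below is between 2 libraries, has no replicate check and cannot be told apart from a difference between those libraries or media.

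NF-kB is a transcription factor that is activated downstream of Toll-like receptors, the interleukin-1 receptor and tumour necrosis factor receptors. It switches on transcription of MIR146A, and miR-146a-5p in turn represses the signalling adaptors TRAF6 and IRAK1, a negative feedback. miR-146b-5p comes from another chromosome but has the same seed, the bases that pair first with a target messenger RNA. miR-155-5p is cut from the noncoding transcript MIR155HG, is induced by inflammatory signals, and is best known from lymphocytes and macrophages, where it represses SOCS1 and INPP5D.

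The guide strands are shown first because their likeness bears on how reads can be told apart. Sequences are from RefSeq (GRCh38.p14, where all 5 members were matched by name), 5′ to 3′, with the seed (bases 2 to 8) in capitals.
miR-146a-5p: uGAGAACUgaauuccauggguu
miR-146b-5p: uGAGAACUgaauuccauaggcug
miR-155-5p: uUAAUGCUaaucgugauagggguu
miR-146a-5p and miR-146b-5p had the same first 17 bases and differed at G18A and U21C, counted from 1 at the 5′ end of miR-146a-5p. A read that ends before base 18 thus cannot be assigned to either. miR-7153-5p was the other name in the table with that seed, and it was not a name in these files. No other mature name in the table shared the seed of miR-155-5p.

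The 3p arms, normally the less abundant strand of each hairpin, are shown because they differ between the paralogs at more bases than the 5p arms do.
miR-146a-3p: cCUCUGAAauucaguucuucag
miR-146b-3p: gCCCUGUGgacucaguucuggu
Of 22 bases, 16 differed between these arms when they were set side by side without gaps, and the seeds were different. Both hairpins follow, with the mature arms in capitals.
MIR146A: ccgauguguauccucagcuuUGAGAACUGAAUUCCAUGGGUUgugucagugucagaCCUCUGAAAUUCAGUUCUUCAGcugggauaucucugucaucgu
MIR146B: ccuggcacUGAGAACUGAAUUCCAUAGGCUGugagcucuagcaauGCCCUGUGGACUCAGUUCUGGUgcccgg
MIR146A lies on chromosome 5, 160485352 to 160485450, plus strand, inside an exon of the long noncoding gene MIR3142HG in GENCODE 29 (GRCh38). MIR146B lies on chromosome 10, 102436512 to 102436584, plus strand, and overlapped no other annotated gene. MIR155 lies on chromosome 21, 25573980 to 25574044, plus strand, inside an exon of MIR155HG. No position was converted to or from hg19, the build named in the submitters' processing notes.

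The promoter of the MIR146A host gene is shown because it holds a match to the NF-kB consensus, a decamer searched on both strands. The window is chr5:160468001-160468300, plus strand, which runs from 250 bases before to 50 after the RefSeq start of MIR3142HG, and the match is in capitals.
MIR3142HG: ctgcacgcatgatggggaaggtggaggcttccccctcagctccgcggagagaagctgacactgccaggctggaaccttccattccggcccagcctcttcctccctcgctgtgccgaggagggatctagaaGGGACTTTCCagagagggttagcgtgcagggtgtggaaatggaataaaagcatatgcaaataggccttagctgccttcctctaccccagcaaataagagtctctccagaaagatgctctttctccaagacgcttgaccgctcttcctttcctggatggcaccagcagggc
The match spans bases 160468131 to 160468140. At least 1 such match was present in 11.3% of 35116 promoter windows of the same length. The corresponding window of MIR155HG held 0 matches, which says only that these letters are not in that window. A match is a description of the sequence, and binding was not measured.

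Listed miRNA reads ranged from 2313577 to 12794274 per library, with the HCT15 reads inferred from deposited RPKM values. Levels are given as CPM, reads scaled to a library total of 1000000 listed miRNA reads, and intervals are exact 95% intervals that cover counting error only. The reads carry no molecular identifiers. As a coarse check of tissue, 9 of 9 miRNAs of colorectal epithelium (the miR-200 family, miR-192-5p, miR-194-5p, miR-215 and miR-375) averaged 50 CPM or more in both lines. Both lines are colorectal, so this cannot tell the lines or the cultures apart. Their levels differed widely, with miR-194-5p at a mean of 17688 CPM in HT29 and 79.8 in HCT15. miR-375 went the other way, at 1660 and 9032 CPM. Of 8 blood-cell miRNAs, 3 reached that level in HT29 and 0 in HCT15. miR-223-3p, a defining myeloid miRNA, had 0 reads in every library, with an upper 95% limit of 1.59 CPM in the shallowest.

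miR-146a-5p, the NF-kB feedback miRNA, was the most abundant member in 3 of the 4 libraries, and its level was higher in spheres than in parental cells of both lines. It was at 536 CPM in parental HT29 cells (3114 reads) and 2454 CPM in HT29 spheres (31398 reads). In HCT15 it was at 2475 CPM in parental cells (7868 reads) and 19549.8 CPM in spheres (45230 reads). As CPM, HT29 spheres and parental HCT15 cells were thus at nearly the same level, while HCT15 spheres stood apart. The counting intervals of the first pair overlapped (2427 to 2481 and 2421 to 2531 CPM). The factors of TMM scaling, described below, were 0.885 and 1.06 for that pair, so its closeness depends on the scaling. Among the miRNAs of each library it ranked 110th in parental HT29 cells, 46th in HT29 spheres, 48th in parental HCT15 cells and 13th in HCT15 spheres.

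The level of miR-146a-5p in spheres over parental cells was 4.58-fold in HT29 and 7.90-fold in HCT15 as CPM. After TMM scaling, which adjusts for miRNAs that take up much of a library, the log2 ratio was 2.70 in HT29 (interval 2.65 to 2.76) and 3.31 in HCT15 (3.27 to 3.34). Over 14 scalings, 8 of them added after the data were seen, the ratio ran from 2.19 to 2.998 in HT29 and from 2.98 to 3.59 in HCT15. Several of these scalings gave the same ratio, so a count of scalings, here or below, is not a count of independent checks.

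miR-146b-5p, the paralog with the same seed, was at 584 CPM in parental HT29 cells, 1087 in HT29 spheres, 1234 in parental HCT15 cells and 3338 in HCT15 spheres. These levels rested on 3392, 13904, 3923 and 7723 reads. As CPM, the order of the 4 libraries was the same as for miR-146a-5p, but the span between the lowest and the highest was smaller. Its log2 ratio of spheres over parental cells was 1.41 in HT29 (interval 1.35 to 1.46) and 1.76 in HCT15 (1.71 to 1.82). In HT29 it was 0.90 when scaled by total counts, below 2-fold, and 1.32 to 1.70 with the other 13 scalings.

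miR-155-5p, the miRNA of the MIR155HG transcript, differed far more between the lines than between the cultures. It was at 47.5 CPM in parental HT29 cells (276 reads), 57.8 in HT29 spheres (739 reads), 1799 in parental HCT15 cells (5720 reads) and 1323 in HCT15 spheres (3062 reads). The HCT15 level was 37.9-fold that of HT29 in parental cells and 22.9-fold in spheres, against 4.62-fold and 7.97-fold for miR-146a-5p and 2.11-fold and 3.07-fold for miR-146b-5p. The files of the lines were normalized separately, HT29 as counts and HCT15 as RPKM, so these folds compare shares of listed reads and were not tested.

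The log2 ratio of miR-155-5p was 0.79 in HT29 spheres (interval 0.59 to 1.00) and -0.12 in HCT15 spheres (-0.18 to -0.05). In HCT15 the sign depended on the scaling, from -0.44 with total counts to 0.17 with the upper quartile, with 3 of 14 scalings positive, and no direction can be given there. In HT29 it was positive with each of the 14 scalings, from 0.28 to 1.08, and was over 2-fold with 6 of them. miR-155-3p, the opposite arm and no member of the set, had 2 reads in parental HT29 cells and 0 in the other 3 libraries. A count of 0 has an upper 95% limit of 0.288 CPM in HT29 spheres, 1.16 in parental HCT15 cells and 1.59 in HCT15 spheres.

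**Figure D1:**
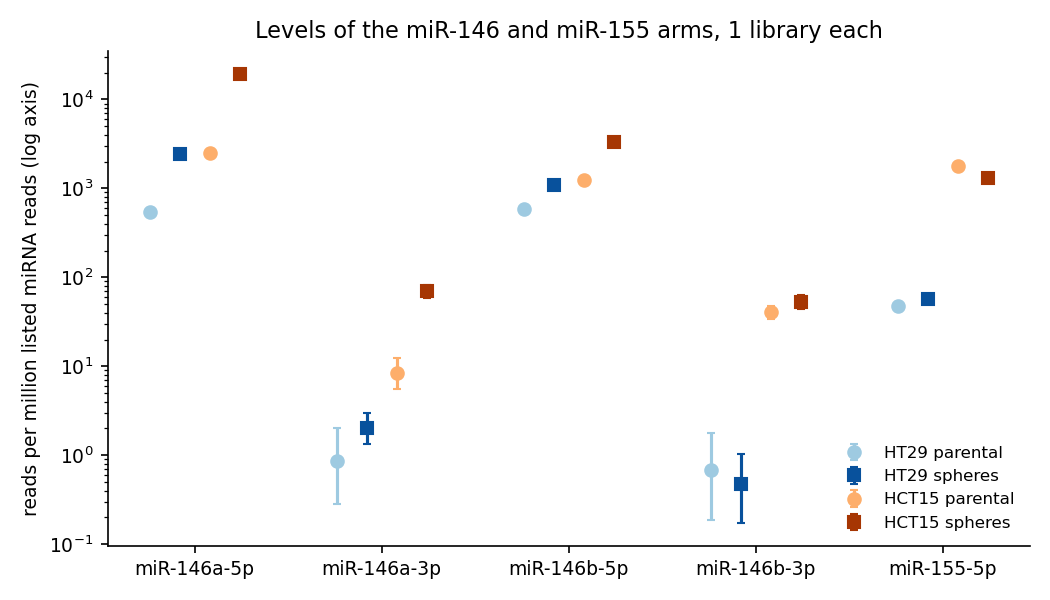
Level of each member in the 4 libraries, in CPM on a log axis, with HT29 in blue and HCT15 in orange, parental cells as circles and spheres as squares. Bars are exact 95% counting intervals, with 1 library per point. miR-146a-5p runs from 536 to 19549.8 CPM, and the miR-155-5p points separate far more by line than by culture.

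Of the 5 members, 3 averaged 50 CPM or more in HT29, and 2 of these, miR-146a-5p and miR-146b-5p, were higher in spheres by 2-fold or more. Among all 226 miRNAs at that level in HT29, 11.9% were higher and 20.8% lower by 2-fold or more. In HCT15 the same 3 members had that level and the same 2 passed 2-fold, where 4.39% of 205 miRNAs were higher and 2.93% lower by that measure. The members were chosen from this contrast, so nothing is read from their share. miR-146a-5p had the highest ratio of the 205 in HCT15 and the 4th highest of the 226 in HT29. miR-146b-5p ranked 3rd and 14th, and miR-155-5p 127th and 37th. The median log2 ratio of all miRNAs was 0.07 in HCT15 and -0.07 in HT29.

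**Figure D2:**
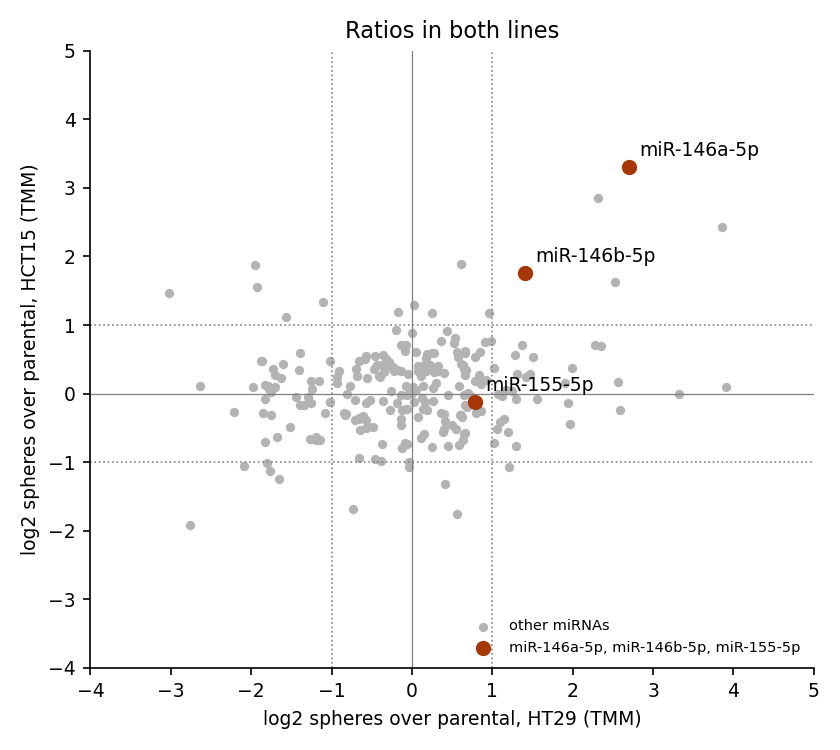
Log2 ratio of spheres over parental cells after TMM scaling in HT29 (horizontal) and HCT15 (vertical) for the 239 miRNAs that averaged 50 CPM or more across all 4 libraries. Dotted lines mark 2-fold. miR-146a-5p (2.70 and 3.31) and miR-146b-5p (1.41 and 1.76) are among the 5 miRNAs past 2-fold higher in both lines, and miR-155-5p lies at 0.79 and -0.12.

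The balance of the paralogs is a ratio within a library, so no scaling changes it. It does depend on how reads were assigned between the guides, which share their first 17 bases, and that method is not given. miR-146a-5p made up 47.9% of miR-146a-5p plus miR-146b-5p reads in parental HT29 cells (Clopper-Pearson interval 46.6 to 49.1). It made up 69.3% in HT29 spheres (68.9 to 69.7), 66.7% in parental HCT15 cells (65.9 to 67.6) and 85.4% in HCT15 spheres (85.1 to 85.7). parental HT29 cells were the only library with more miR-146b-5p than miR-146a-5p. The ratio of miR-146a-5p to miR-146b-5p reads went from 0.918 to 2.26 in HT29, a 2.46-fold difference (log2 1.30, interval 1.22 to 1.37). In HCT15 it went from 2.01 to 5.86, a 2.92-fold difference (log2 1.55, interval 1.48 to 1.61). Summed, both guides took 1120 CPM in parental HT29 cells, 3541 in HT29 spheres, 3709 in parental HCT15 cells and 22888 in HCT15 spheres.

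The balance of miR-146a-5p to miR-155-5p, the feedback miRNA against the other inflammation-linked guide, also was higher in spheres. It was 11.3 to 1 in parental HT29 cells and 42.5 to 1 in spheres, a 3.77-fold difference (log2 1.91, interval 1.70 to 2.12). In HCT15 it was 1.38 to 1 in parental cells and 14.8 to 1 in spheres, a 10.7-fold difference (log2 3.42, interval 3.35 to 3.50). In parental HCT15 cells the order of the guides was miR-146a-5p, miR-155-5p and miR-146b-5p, whereas in the other 3 libraries miR-155-5p was the lowest. The 3 guides together were 0.117% of listed reads in parental HT29 cells, 0.360% in HT29 spheres, 0.551% in parental HCT15 cells and 2.42% in HCT15 spheres.

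The 3p arms were scarce in every library. miR-146a-3p had 5 reads in parental HT29 cells, 26 in HT29 spheres, 27 in parental HCT15 cells and 161 in HCT15 spheres, or 0.861, 2.03, 8.49 and 69.6 CPM. Its order over the libraries as CPM was that of miR-146a-5p. Its log2 ratio was 3.24 in HCT15 (interval 2.77 to 4.01), beside 3.31 for the 5p arm, and 1.48 in HT29 (0.34 to 3.49), beside 2.70.

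miR-146a-3p was 0.342% of the reads of both arms in parental HCT15 cells (interval 0.225 to 0.497) and 0.355% in HCT15 spheres (0.302 to 0.414). In HT29 it was 0.160% (0.052 to 0.374) and 0.083% (0.054 to 0.121), and the intervals overlap. No difference in the ratio of the arms was thus detectable at this depth in either line. The log2 value of spheres over parental cells was 0.05 in HCT15 (interval -0.54 to 0.70) and -0.96 in HT29 (-2.36 to 0.78).

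miR-146b-3p was at 4 and 6 reads in parental HT29 cells and their spheres and at 128 and 123 reads in those of HCT15. As levels these were 0.689, 0.469, 40.3 and 53.2 CPM, so HCT15 exceeded HT29 by 58.5-fold in parental cells and 113-fold in spheres, with HT29 at 4 and 6 reads. The 5p arm of the same hairpin differed between the lines by 2.11-fold and 3.07-fold. Wide line differences of an arm share were not particular to this hairpin and went both ways. The 3p share of miR-21 was 0.127% in parental HT29 cells and 12.4% in parental HCT15 cells, and that of miR-31 was 8.21% and 0.113%. The HCT15 log2 ratio of miR-146b-3p was 0.72 (interval 0.36 to 1.10), against 1.76 for its 5p arm.

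In HCT15 miR-146b-3p was 3.16% of both arms in parental cells (interval 2.64 to 3.75) and 1.57% in spheres (1.30 to 1.87), and the intervals did not overlap. The ratio of 3p to 5p reads thus was lower in spheres by log2 -1.03 (interval -1.41 to -0.66). In HT29 the 3p share was 0.118% (0.032 to 0.301) and 0.043% (0.016 to 0.094), with overlapping intervals. Among 56 other hairpins of HCT15 with at least 1000 reads in each library and 20 minor-arm reads summed over both, 8.93% had a minor-arm share at least 2-fold lower in spheres and 1.79% at least 2-fold higher. The percentiles 10 and 90 of that log2 change were -0.99 and 0.32, and miR-146b was at -1.01 and miR-146a at 0.03. Of the 5 hairpins at least 2-fold lower, 2 had under 20 minor-arm reads in a library, and the fewest were 7. In HT29, of 93 other hairpins, 22.6% were at least 2-fold lower (3 of these 21 with under 20 minor-arm reads in a library) and 4.3% higher, and miR-146a was at -1.06 with 5 reads of its minor arm in parental cells. This comparison with other hairpins was added after the arm values were seen.

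**Figure D3:**
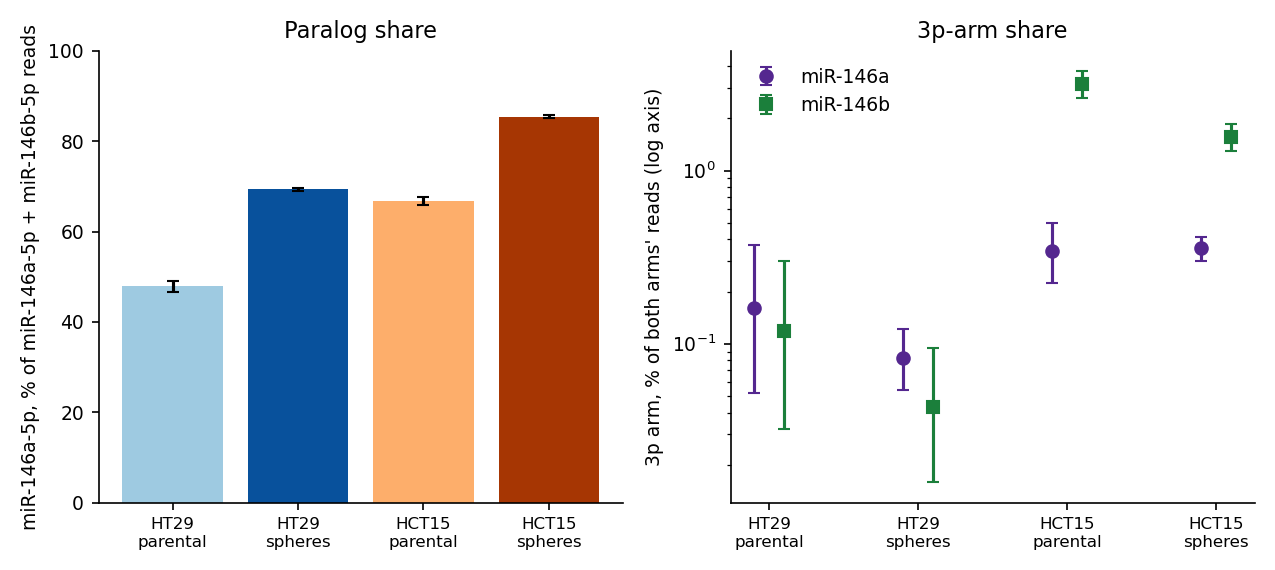
Left, miR-146a-5p as a percentage of miR-146a-5p plus miR-146b-5p reads in each library. Right, the 3p arm as a percentage of both arms' reads on a log axis, for miR-146a (circles) and miR-146b (squares). Bars on the points are exact 95% counting intervals. The paralog share runs from 47.9% to 85.4%, and the miR-146b 3p share in HCT15 (3.16% and 1.57%) lies above the other 3p shares drawn here.

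miR-3142, cut from the same host transcript MIR3142HG 10827 bases before MIR146A, had 1 read in parental HCT15 cells and 0 in the other 3 libraries. The neighbour in the host transcript was thus near or under the limit of a count of 0 in each library, at the same depth that gave miR-146a-5p at least 3114 reads.

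Blood-cell miRNAs are given beside these levels because miR-146a and miR-155 are abundant in immune cells. The 8 listed miRNAs, of which miR-126-3p and miR-223-3p are also in the lists below, summed to 615 CPM in parental HT29 cells and 631 in their spheres, and to 72.4 and 71.8 CPM in those of HCT15. In HT29 most of this was miR-142-3p, at 381 and 366.8 CPM. HCT15, which had the higher level of each of the 5 members in both cultures, had the lower blood-cell sum. Of the 8, miR-486-5p went the other way. It was at 43.1 and 35.0 CPM in parental HCT15 cells and their spheres, against 3.27 and 2.50 CPM in those of HT29. The part of other cell types in the members' levels was not tested. The colorectal epithelium miRNAs summed to 174837 and 238778 CPM in parental HT29 cells and their spheres, with 4 of 9 higher by 2-fold or more in spheres, against 11.9% of all 226 miRNAs (with total counts, 2 of 9 against 11 of 226), and to 25049.6 and 23400 CPM in HCT15, with 0 of 9 past 2-fold either way, against 4.39% higher and 2.93% lower of all 205.

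Other miRNAs reported to be induced by NF-kB or inflammatory signals had ratios on both sides of 0. Of 13 listed, 6 averaged 50 CPM or more in HT29, where 0 were higher and 2 lower by 2-fold or more (0 and 3 with total counts). Of all miRNAs at that level in HT29, 11.9% were higher and 20.8% lower, and the median log2 ratio was -0.25 for the list and -0.07 for all. In HCT15, 7 had that level, with 1 higher (0 with total counts) and 0 lower, against 4.39% and 2.93% of all miRNAs (median 0.61, against 0.07). miR-21-5p, the most abundant of the list and an oncomiR raised in many tumours, had log2 ratios of 0.99 in HT29, just under 2-fold, and 0.77 in HCT15. Its highest values over the scalings were 1.28 and 1.05, so the counts of higher miRNAs depended on the scaling in both lines. miR-31-5p, which is raised in colorectal tumours, went opposite ways, from 13634 to 3241 CPM in HT29 (log2 -1.56) and from 6117 to 10570 CPM in HCT15 (1.12, or 0.79 with total counts).

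Of the same list, miR-222-3p and miR-221-3p, which come from 1 cluster on the X chromosome, had log2 ratios of -0.68 and 0.52 in HT29 and 0.25 and 0.74 in HCT15. The ratio of miR-222-3p in HCT15 changed sign with the scaling. miR-301a-3p, which represses the NF-kB repressing factor NKRF, was at 1007 and 210 CPM in parental HT29 cells and their spheres (log2 -1.75). In HCT15 it was at 1103 and 894 CPM, with a log2 ratio of 0.02 whose sign depended on the scaling.

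Of 16 miRNAs reported to act on components of the NF-kB pathway, 12 averaged 50 CPM or more in each line. In HT29, 1 was higher and 4 lower by 2-fold or more (0 and 5 with total counts), against 11.9% and 20.8% of all miRNAs, with a median of -0.17 against -0.07. In HCT15, 1 was higher and 0 lower (0 and 0 with total counts), against 4.39% and 2.93% of all miRNAs, with a median of 0.55 against 0.07. The one higher in HT29 was miR-30e-3p, which represses the inhibitor IkB-alpha, with a log2 ratio of 1.19 in HT29 (0.68 with total counts) and -0.57 in HCT15. The 4 lower in HT29 were miR-16-5p (-1.86), miR-19a-3p (-1.86), miR-19b-3p (-1.88) and miR-301a-3p. In HCT15 these had -0.28, 0.48, 0.48 and 0.02, and the signs of the first and last depended on the scaling. The one higher in HCT15 was miR-181a-5p, at 9752 and 17603 CPM (log2 1.18, or 0.85 with total counts), and its HT29 value of 0.26 was negative under total counts.

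Among the most abundant of this list, miR-10a-5p, which represses the kinase MAP3K7, had log2 ratios of -0.13 in HT29 and 0.71 in HCT15. miR-182-5p, which represses the deubiquitinase CYLD, had 0.43 and 0.91, and miR-125a-5p, which represses TNFAIP3, had -0.20 and 0.93. The HT29 ratios of these 3 miRNAs changed sign with the scaling and the HCT15 ratios did not. In HCT15 the highest values over the scalings were past 2-fold for miR-182-5p (1.19) and miR-125a-5p (1.22). The 2 lists share miR-9-5p, miR-125b-5p, miR-223-3p and miR-301a-3p. After TMM scaling, no member of either list was at least 2-fold higher in both lines among those at 50 CPM or more. This depended on the scaling, because the highest log2 ratios of miR-21-5p over the scalings were 1.28 in HT29 and 1.05 in HCT15.

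The miRNAs most like each guide over the 4 libraries were found by the distance between log2(CPM + 1) profiles centred on their own mean, among 238 others that averaged 50 CPM or more. Nearest to miR-146a-5p were miR-4792 (distance 0.86 in log2 units), miR-146b-5p (1.90), miR-1307-5p (2.31) and miR-181a-5p (2.38). miR-155-5p was 59th, at 3.58. miR-4792 was at 121 and 423 CPM in parental HT29 cells and their spheres and 967 and 5550 CPM in those of HCT15. Nearest to miR-146b-5p were miR-221-5p (0.82), miR-1307-5p (1.01), miR-182-5p (1.09) and miR-181a-5p (1.09), whereas miR-146a-5p was 40th at 1.90. With 4 libraries and 238 candidates, close profiles can arise from the difference between the lines alone, and these distances are a description.

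**Figure D4:**
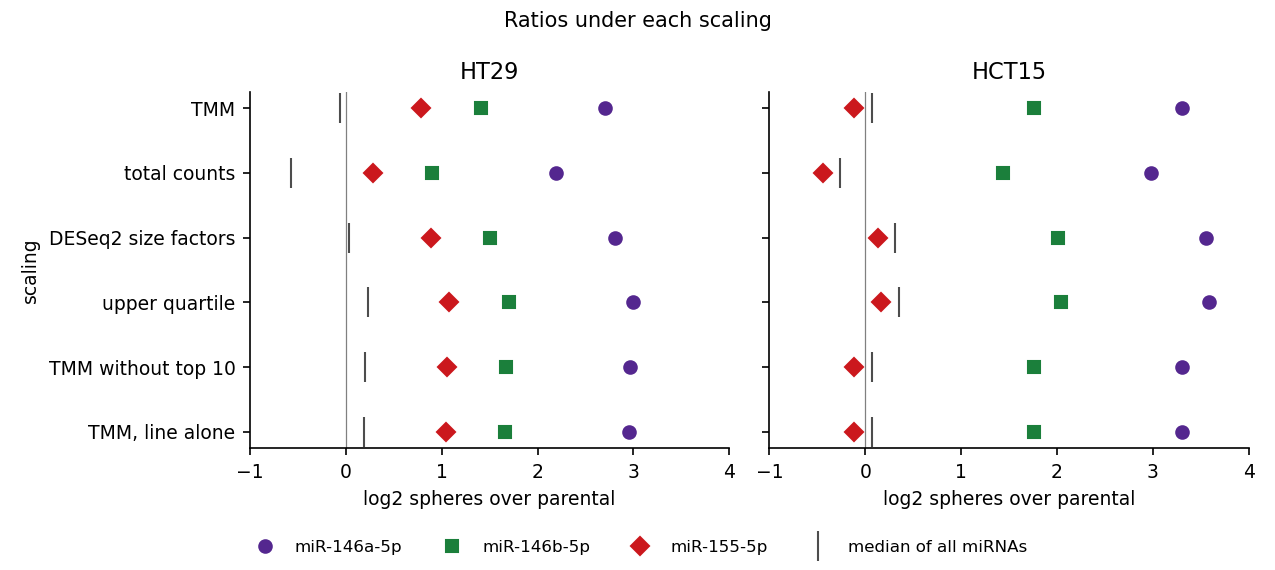
Log2 ratio of spheres over parental cells for the 3 guides under 6 scalings in HT29 (left) and HCT15 (right). Vertical ticks give the median of all miRNAs that averaged 50 CPM or more in that line. miR-146a-5p lies between 2.19 and 2.998 in HT29 and between 2.98 and 3.59 in HCT15, and miR-155-5p in HCT15 lies on both sides of 0.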

How the data were processed

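Per the labels' protocols, sequencing libraries were built from total RNA using the TruSeq Small RNA kit. The files list mature miRNAs of miRBase R19, per the file headers. For HT29 the deposited unit is the read count, and for HCT15 it is RPKM. The submitters' processing notes name hg19. For alignment, trimming and reads that match several miRNAs, the method is not given in the sources used here. Nothing says that cultures were repeated.

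In HCT15 the deposited RPKM steps grew with mature length as length divided by (length + 9), with 1 read worth 0.162 in parental cells and 0.263 in spheres at 22 bases. The parental step was the commonest value under 1, and the sphere step was the commonest such value divided by 2, a choice made from the values. Of 798 and 465 miRNAs with a value and a RefSeq length, 69.8% and 70.5% came out whole within 0.05 reads, so the HCT15 reads are approximate overall. Where the RefSeq length gave no whole reads, a length up to 2 bases away at which both values were whole was used (62 names), a choice made from the values, and 296 names stayed not whole and were rounded. All 5 members were whole in both libraries, miR-146b-5p and miR-155-5p by that choice, at 1 base fewer than in RefSeq. With the sphere step set so, single reads are nearly missing from HCT15 spheres, and a 0 in that library may stand for a lost read.

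CPM used the total of listed reads. Ratios used TMM factors over names in all 4 files (edgeR 4.0.16, R 4.3.3) and a prior count of 2, with exact conditional binomial 95% intervals. Shares have Clopper-Pearson and levels Poisson intervals (scipy 1.17.1, Python 3.11.15). Only the log2 ratio and its interval were tested on simulated data, Poisson reads with known folds and library totals as sizes. The TMM factors, shares, level intervals and inferred HCT15 reads were not tested in that way. Alternatives were 5 other scalings, with size factors from DESeq2 1.42.0, 8 versions of TMM added after the data were seen, and prior counts of 0.5 and 10. No test was made, with 1 library per line and culture. The named miRNAs were the members, those sharing their seeds, miR-3142, the up to 5 most abundant of each NF-kB list with any past 2-fold in both lines, and the 4 nearest profiles. miR-30e-3p, miR-19a-3p and miR-19b-3p were named after their values were seen. The members and lists were chosen with earlier results of these data known.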

Additional observations from a re-analysis of the deposited data

Results flagged for a closer look

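miR-155-5p had ratios of opposite sign in the 2 lines after TMM scaling, with a log2 ratio of spheres over parental cells of 0.788 in HT29 and -0.117 in HCT15. Its HT29 ratio was positive with all 14 scalings and its HCT15 ratio with 3 of 14. miR-146b-3p also had opposite signs, at -0.032 in HT29 and 0.716 in HCT15, where the HT29 value rests on 4 and 6 reads, has a counting interval of -2.12 to 2.22 and was positive with 9 of 14 scalings. Neither difference between the lines was tested.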

How the results depend on the processing

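Another scaling shifts every ratio of a line together, so log2 ratios are given in the order miR-146a-5p, miR-146b-5p and miR-155-5p. In HT29 they were 2.19, 0.895 and 0.280 with total counts. The upper quartile gave 2.998, 1.70 and 1.08. They were 2.97, 1.67 and 1.05 without the 10 most abundant miRNAs, and 2.96, 1.66 and 1.04 when TMM used that line by itself. DESeq2 size factors gave 2.81 and 1.51 for the miR-146 pair. In HCT15 they were 2.98, 1.43 and -0.443 with total counts, 3.55, 2.01 and 0.130 with DESeq2 size factors, and 3.59, 2.04 and 0.165 with the upper quartile, so miR-155-5p reversed with the last pair. The 8 versions of TMM were chosen after seeing the data. With the 378 miRNAs at 10 CPM or more in 2 libraries, by either definition of library size or with parental HCT15 cells as reference, HT29 gave 2.96, 1.66 and 1.04 and HCT15 3.39, 1.84 and -0.037. Of the other references for that set, either HT29 library gave 2.83 and 1.53 for the miR-146 pair in HT29, and HCT15 spheres gave 2.62 and 1.32 there and 3.39, 1.84 and -0.037 in HCT15. In HCT15 the parental HT29 reference gave 3.10, 1.55 and -0.324, and the HT29 sphere reference 3.44, 1.89 and 0.014, a reversed sign for miR-155-5p. Library sizes from names in all files, missing names as 0, and prior counts of 0.5 and 10 left these 6 ratios within their counting intervals. The paralog shares stayed within their intervals with both arms summed. In that sum the 3p arms were at most 3.16% of a hairpin's reads, so it could move the shares only a little. The HCT15 3p shares were unchanged with unrounded values, which could not move them because the members' reads came out whole. In HT29 27 miRNAs were higher and 47 lower by 2-fold or more, against 11 and 74 with total counts and 44 and 77 at 10 CPM or more. In HCT15 the counts of 9 and 6 became 5 and 22 with total counts, 15 and 1 with DESeq2 size factors, 16 and 1 with the upper quartile, and 31 and 21 at 10 CPM or more. The count lower in HCT15 was 10 with the parental HT29 reference and 3 with the other filtered versions of TMM. No paired analysis was possible because each line and culture has 1 library. Depth limits the 3p arms in HT29, with 4 to 26 reads.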
